A study of Mus musculus with 8 samples.

Results

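Keratins of simple epithelia and markers of injured alveolar epithelium were examined in whole lungs of mechanically ventilated and non-ventilated mice. The set was chosen by gene symbol: Krt7, Krt8, Krt18, Krt19, Sfn, Lgals3, Clu, Ctsh, Tnip3 and Sprr1a. In the platform annotation 9 of the 10 symbols had a probe, out of 16593 gene symbols on the array. They had 10 probes in all of the array's 25697. Sfn had 2 probes and the other 8 genes 1 each. No probe was listed under Tnip3, which encodes an inhibitor of NF-kB signalling that partners A20, so its level is not reported.

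The ventilated group held 5 mice and the control group 3 mice that were not ventilated. All were of the inbred NOD/shi strain, a substrain of the non-obese diabetic mouse, and were 6 to 12 weeks old. Each lung was read on 1 single-colour Illumina bead array. The comparison asks which transcripts differ between lungs after ventilation, in a study of lung injury by the ventilator. How hard and how long the mice were ventilated, and how controls were handled, is not given in the sources used here. Lungs are numbered separately in the labels. The p-values set group differences against the spread between lungs, in which lung and array differences cannot be told apart.

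Keratins are intermediate filament proteins that assemble from a type I chain and a type II chain. In simple epithelia Krt8 (type II) pairs mainly with Krt18 (type I), while Krt7 (type II) and Krt19 (type I) mark alveolar, airway and mesothelial lining cells. After alveolar injury in mice, type 2 cells on their way to type 1 cells pass through a transitional state known for high Krt8. Sfn, Lgals3, Clu, Cldn4 and Cdkn1a have been described as further genes of such cells. A whole-lung value cannot tell fewer cells of a type from less RNA per cell.

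The arrays differed in brightness in both groups. Mean probe intensity lay between 87.4 and 321 on the ventilated arrays and between 54.3 and 332 on the control arrays, with control 2 the dimmest. The number of probes detected above background was 9765 to 13924 in ventilated lungs and 8080 to 14313 in control lungs. Control 2 correlated with the other arrays at 0.838 to 0.896 across probes, and the other pairs of arrays correlated at 0.909 or more. Markers of the labelled tissue, Sftpc, Ager and Scgb1a1, were detected on all 8 arrays. The number of arrays limits the precision of every value below.

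Krt18 and Krt8 stood higher relative to controls than any other kept keratin probe, whereas Krt7 and Krt19 stood at almost the same level in both groups. The log2 fold change, ventilated minus control, was 1.05 ± 0.26 (SE) for Krt18 and 0.79 ± 0.25 for Krt8, against 0.05 ± 0.25 for Krt7 and 0.08 ± 0.23 for Krt19. No single keratin passed an adjusted p of 0.05 in limma over all kept probes. The ratio of Krt8 or Krt18 to Krt7 or Krt19 within a lung nevertheless rose in ventilated lungs in all 4 such pairs. These pairs are built from the same 4 probes, so they are not 4 independent results. The genes were also chosen with earlier results of these data known. Kept probes, 13374 in all, are those that 3 or more of the 8 arrays detected above background (detection p under 0.05).

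Krt18, the type I partner of Krt8, had normalized log2 intensities of 8.47, 7.94, 8.38, 8.91 and 8.10 in ventilated lungs 1 to 5, against 7.51, 7.17 and 7.25 in control lungs 1 to 3. Every ventilated lung lay above every control lung, with ventilated 4 highest. The 95% interval of its log2 fold change was 0.49 to 1.62, and the adjusted p was 0.0759 (limma, Benjamini-Hochberg). Krt8 had log2 intensities of 10.65, 9.93, 10.29, 10.71 and 10.40 in ventilated lungs, against 9.91, 9.42 and 9.49 in control lungs. The groups again did not overlap, although ventilated 2 at 9.93 and control 1 at 9.91 were nearly equal. The interval for Krt8 was 0.24 to 1.33 and its adjusted p 0.163. On the 4 brighter arrays alone (ventilated 2 and 5, controls 1 and 3) the log2 fold change was 0.65 for Krt18 and 0.46 for Krt8. The probe of Krt18 passed the threshold in 5 of 16 alternative analyses (adjusted p = 0.0211 to 0.0495 in limma) and in none of the 8 refits with an array removed.

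**Figure D1:**
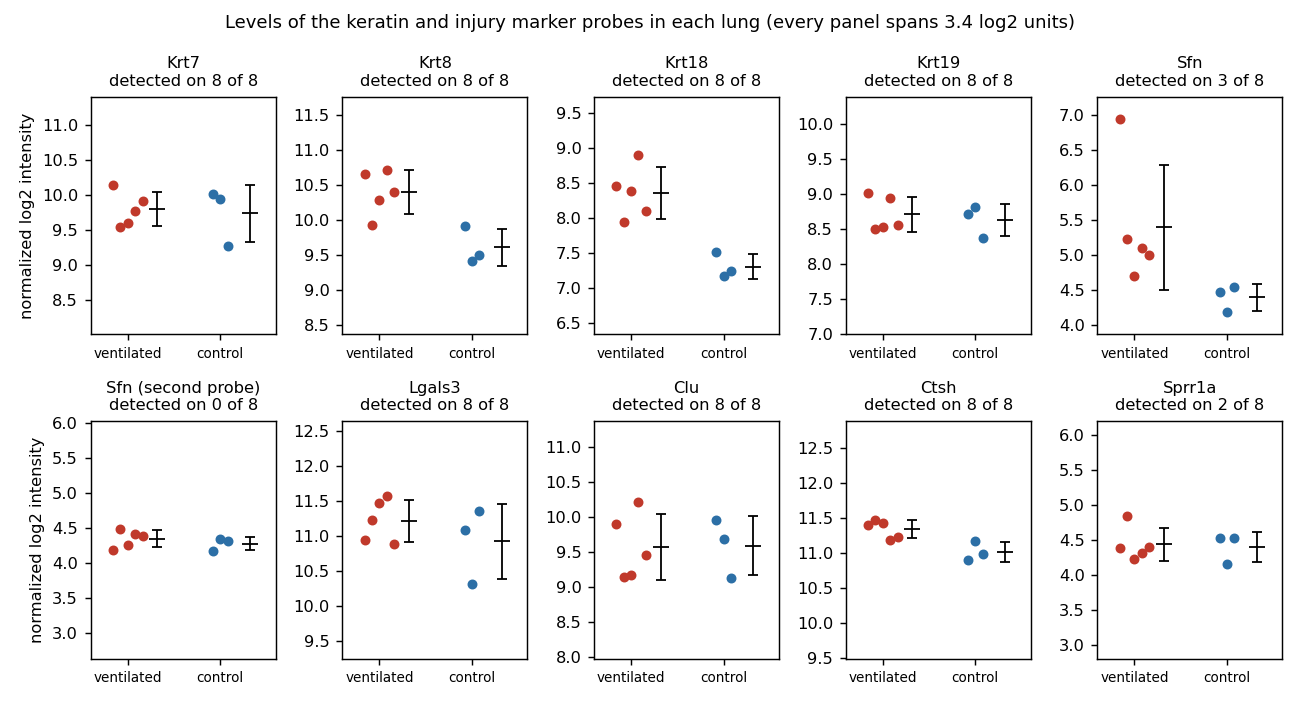
Normalized log2 intensity of the 10 probes in each lung, ventilated left in red and control right in blue, with the group mean and SD as a bar beside the points. The 5 ventilated points of Krt8 and Krt18 all sit above the 3 control points, whereas those of Krt7, Krt19, Lgals3 and Clu overlap the controls.

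Krt7, a type II keratin of simple ducts and lining cells, had log2 intensities of 10.14, 9.54, 9.60, 9.77 and 9.91 in ventilated lungs and 10.01, 9.94 and 9.27 in control lungs. The groups overlapped throughout, and the interval of the log2 fold change was −0.50 to 0.61 (adjusted p = 0.947, limma). Krt19, a type I keratin that many simple epithelia share, had 9.02, 8.50, 8.53, 8.95 and 8.57 in ventilated lungs and 8.72, 8.82 and 8.37 in control lungs. Its groups overlapped too, with an interval of −0.43 to 0.59 (adjusted p = 0.913, limma). Neither interval excludes a modest change in either direction.

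**Figure D2:**
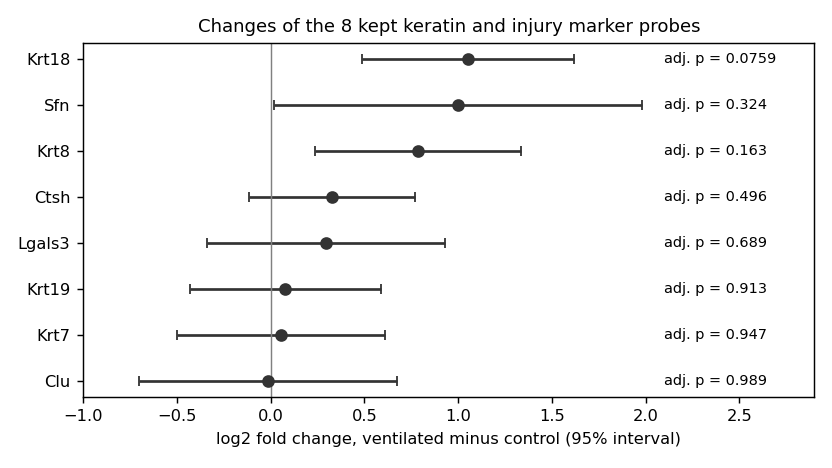
Log2 fold change, ventilated minus control, of the 8 kept probes with 95% intervals from limma and the adjusted p of each. The intervals of Krt18, Krt8 and Sfn lie above 0, and no adjusted p is under 0.05; the Sfn probe was detected on no control array.

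The keratins were then set against each other within each lung. In this quantity a shift common to all probes of an array cancels, but a difference in background does not. The difference Krt18 minus Krt7 in log2 intensity was −1.67, −1.59, −1.22, −0.86 and −1.81 in ventilated lungs and −2.50, −2.77 and −2.02 in control lungs. After normalization it was thus higher in all 5 ventilated lungs. The ratio of Krt18 to Krt7 rose 2.00-fold (exact two-sided permutation test, p = 0.0179, adjusted p = 0.0268 over the 6 keratin pairs). In the deposited intensities the groups overlapped for this ratio. Krt18 and Krt7 stood there at 51.7 and 132 in control 2, the dimmest array, against 185 and 516 in ventilated 1. Relative to Krt7, Krt18 was thus higher in control 2 than in ventilated 1 before normalization. Krt18 minus Krt19 was −0.56, −0.56, −0.14, −0.05 and −0.46 in ventilated lungs and −1.21, −1.65 and −1.13 in control lungs, a ratio that rose 1.97-fold (exact permutation, adjusted p = 0.0268).

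Krt8 minus Krt7 was 0.52, 0.39, 0.68, 0.94 and 0.49 in ventilated lungs, against −0.09, −0.52 and 0.22 in control lungs. Krt8 minus Krt19 was 1.63, 1.42, 1.76, 1.76 and 1.84 in ventilated lungs, against 1.20, 0.60 and 1.12 in control lungs. Both sets of values were separate between the groups, and the ratios rose 1.66-fold and 1.63-fold (exact permutation, adjusted p = 0.0268 each). The p of 0.0179 is the smallest that the 56 splits of 8 arrays can give. With 4 of the 6 pairs at that p, the adjusted p of each is 0.0268 (exact permutation).

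Within the partner pair, Krt8 minus Krt18 was 2.03 ± 0.20 (SD, n = 5) in ventilated and 2.30 ± 0.09 (SD, n = 3) in control lungs, and the difference of −0.27 did not pass (exact permutation, adjusted p = 0.107). Krt7 minus Krt19 was 1.08 ± 0.19 in ventilated and 1.10 ± 0.20 in control lungs (exact permutation, adjusted p = 0.786). The 4 ratios that rose had smaller differences on the brighter arrays alone, at 0.56 for Krt18 minus Krt7, 0.66 for Krt18 minus Krt19, 0.37 for Krt8 minus Krt7 and 0.47 for Krt8 minus Krt19, and there the smallest possible p is 0.333. With 1 control removed the adjusted p was 0.0714 to 0.143 (exact permutation), so none of the 4 ratios passed. The 21 splits cannot give a p under 0.0476, and each ratio reached that p except Krt18 minus Krt7 without control 2 (adjusted p = 0.143, exact permutation). Without control 2 the differences were 0.83, 0.81, 0.54 and 0.52 in the same order. With each array's median set equal in place of quantile normalization, Krt18 minus Krt7 did not pass (0.65, adjusted p = 0.0804, exact permutation), and with the deposited scaled values it was 0.49 (adjusted p = 0.295, exact permutation).

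**Figure D3:**
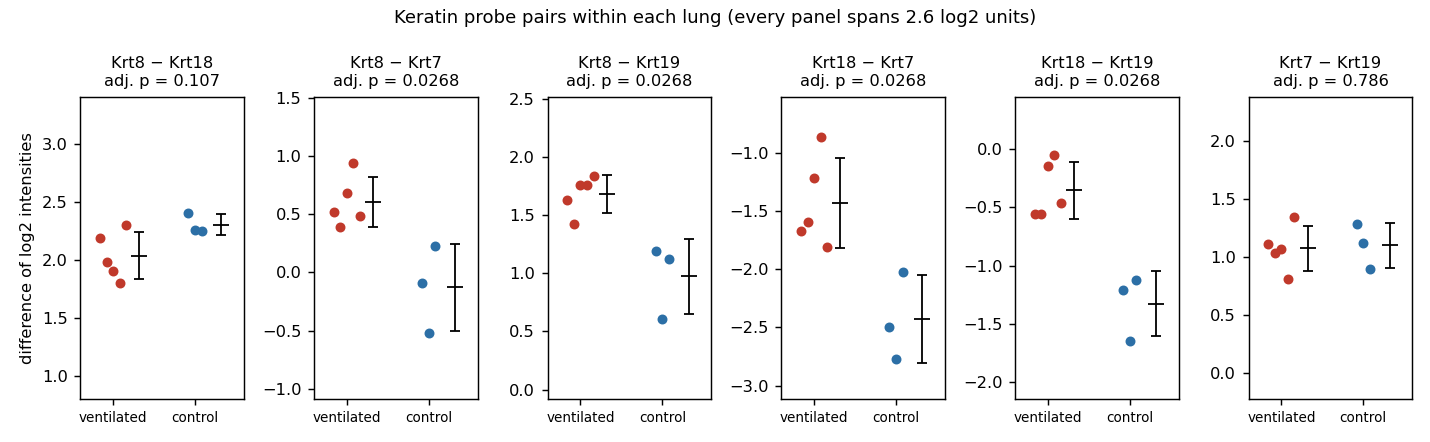
Difference of normalized log2 intensities between 2 keratin probes in each lung, ventilated left in red and control right in blue, with the group mean and SD as a bar. In the 4 middle panels every ventilated lung lies above every control lung, whereas Krt8 minus Krt18 and Krt7 minus Krt19 overlap between the groups.

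Krt8 and Krt18 are neighbours on chromosome 15, with no protein-coding gene between them in RefSeq's mouse annotation, and are transcribed away from each other. Krt7 lies on the same chromosome and Krt19 on chromosome 11. Because the levels of Krt8 and Krt18 were both above those of the controls while Krt7 was not, the start regions of these 3 genes are shown, 250 bases before to 50 after the annotated start, from RefSeq on GRCm38.p6. Capitals mark matches on either strand to the motifs searched: the AP-1 site TGANTCA, the Sp1 box GGGCGG, the TEAD site GGAATG, the TATA box TATAAA, an NF-kB consensus that was searched by its letters and is named here only, and the glucocorticoid receptor half-site AGAACA.
Krt18, chr15:102027966-102028265, plus strand: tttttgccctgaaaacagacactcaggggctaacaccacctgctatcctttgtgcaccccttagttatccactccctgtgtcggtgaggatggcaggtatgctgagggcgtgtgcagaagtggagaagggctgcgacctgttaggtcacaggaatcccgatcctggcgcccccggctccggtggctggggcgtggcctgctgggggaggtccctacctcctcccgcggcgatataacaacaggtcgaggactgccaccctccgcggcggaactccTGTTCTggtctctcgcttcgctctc
Krt8, chr15:102004293-102004592, minus strand: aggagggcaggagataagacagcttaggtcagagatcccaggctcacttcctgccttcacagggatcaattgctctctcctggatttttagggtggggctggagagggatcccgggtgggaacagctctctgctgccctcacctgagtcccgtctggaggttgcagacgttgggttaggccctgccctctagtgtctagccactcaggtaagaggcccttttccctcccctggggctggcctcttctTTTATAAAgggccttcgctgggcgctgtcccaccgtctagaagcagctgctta
Krt7, chr15:101412153-101412452, plus strand: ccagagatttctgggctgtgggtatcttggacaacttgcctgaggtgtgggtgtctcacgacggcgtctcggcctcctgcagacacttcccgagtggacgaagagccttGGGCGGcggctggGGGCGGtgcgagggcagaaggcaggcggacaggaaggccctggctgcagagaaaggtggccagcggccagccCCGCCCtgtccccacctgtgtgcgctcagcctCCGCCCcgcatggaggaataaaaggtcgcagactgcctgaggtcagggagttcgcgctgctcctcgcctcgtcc
The Krt7 window held 4 Sp1 boxes, which stand in 35.7% of all 32851 windows of the same length, and none of the other motifs. The Krt8 window held TATAAA on both strands in overlapping letters, a motif of 13.6% of windows. These matches began at −3 and −1 from the annotated start, so they lay on the start itself. The Krt18 window held 1 glucocorticoid receptor half-site, found in 19% of windows. None of the 3 held an AP-1, TEAD or NF-kB match. These stand in 7.81%, 14.7% and 0.411% of windows, so most windows lack each of them. The RefSeq table used also listed windows for Sfn, Lgals3, Tnip3 and Sprr1a, and not for Krt19, Clu and Ctsh.

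By overall pattern, the genes most like Krt8 over the 8 arrays were Cuedc1, Wdr33, Hk3, Hspb8 and Inpp5d. Their root mean square difference from Krt8 in centred log2 intensity was 0.118, 0.137, 0.143, 0.145 and 0.15. Krt18 stood at 0.199, the 18th closest of 9424 genes, while Krt19 at 0.396 and Krt7 at 0.429 ranked 794 and 1236. Krt18 ranked 5 without background correction, 4 with a normexp offset of 50, 16 with a common median per array and 239 in the deposited scaled values, and of the 5 genes named Hspb8 alone stayed among the closest 5, in 2 of these 4 settings.

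Among the other injury markers, no gene had a change that passed the test. Sfn encodes 14-3-3 sigma, an epithelial scaffold protein that p53 induces. Its brighter probe had log2 intensities of 6.94, 5.22, 4.69, 5.10 and 4.99 in ventilated lungs and 4.46, 4.17 and 4.53 in control lungs. It was detected in ventilated lungs 1, 2 and 5 and in no control lung. Ventilated 1 stood far above the other lungs, and ventilated 3 barely above the controls. Set against the mean of the lowest detected signals of the 3 control arrays, 4.95, the mean ventilated level of Sfn was 1.36-fold higher. Ventilated 3 and 4, where Sfn was not detected, entered at their measured values, so 1.36-fold is not a strict lower bound. That value rests on ventilated 1: without it the 4 other ventilated lungs averaged 5.00, which was 1.04-fold higher. Ventilated 1 was also the 1 ventilated lung above the lowest detected signal of the dim control 2, 5.79, and 2 ventilated lungs were not detected. Sfn had means of 5.39 ± 0.89 (SD, n = 5) in ventilated and 4.39 ± 0.19 (SD, n = 3) in control lungs and an adjusted p of 0.324 (limma). The second Sfn probe was detected on none of the 8 arrays and lay between 4.19 and 4.49 in ventilated and between 4.17 and 4.35 in control lungs.

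Ctsh, a cysteine protease that takes part in surfactant protein processing in type 2 cells, had log2 intensities of 11.40, 11.47, 11.42, 11.18 and 11.22 in ventilated lungs. Control lungs had 10.89, 11.16 and 10.98, so the groups did not overlap, although ventilated 4 and control 2 nearly touched. The log2 fold change of 0.33 ± 0.20 (SE) had an interval of −0.11 to 0.77 (adjusted p = 0.496, limma). Lgals3, a galectin of macrophages and epithelial cells, had 10.95, 11.22, 11.46, 11.57 and 10.88 in ventilated and 11.09, 10.32 and 11.36 in control lungs. Its groups overlapped, the log2 fold change was 0.29 ± 0.29 (SE), and without control 2, its lowest lung, it was −0.0076.

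Clu, a secreted chaperone, had log2 intensities of 9.89, 9.14, 9.17, 10.22 and 9.45 in ventilated and 9.96, 9.68 and 9.12 in control lungs. Its values spread over more than 1 log2 unit among the ventilated lungs, and the group means were almost equal at 9.58 ± 0.47 (SD, n = 5) in ventilated and 9.59 ± 0.43 (SD, n = 3) in control lungs. Sprr1a, a precursor of the cornified envelope, was not measurable here. It was detected in ventilated 2 and in control 1, and its raw intensities were 42.3 to 63.0 in ventilated and 31.1 to 64.3 in control lungs.

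Of the 8 probes kept, limma called 0 at an adjusted p under 0.05, 0 higher and 0 lower, where 1.62% of all kept probes were called, 0.987% higher and 0.628% lower. At an unadjusted p under 0.05 there were 3 (Krt18, Krt8 and Sfn), against 15% of all kept probes. Every ventilated lung lay above every control lung for 4 of the 8 (Krt8, Krt18, Ctsh and Sfn), against 6.12% of all kept probes, and below for none, against 6.08%. Sfn had passed the detection filter only through ventilated lungs. The other 7 probes were detected on all 8 arrays. Of these, 2 had an unadjusted p under 0.05 (17.6% of all probes detected on every array) and 3 lay above every control lung (6.67%). The median log2 change of the 7 was 0.29, against 0.01 over all kept probes, which include probes not detected on every array. It was 0.56 with a common median per array, 0.51 in the deposited scaled values, 0.13 with array weights, 0.09 on the brighter arrays alone and 0.17 without control 2.

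Other genes described in transitional alveolar cells included 3 that rose. Of 25 listed, 21 had a probe and 19 were kept, 3 rose, none fell and 16 did not pass, where 1.75% of named genes passed in either direction. This list and those below were chosen with earlier results of these data known. Their counts beside such shares are therefore a description and no test. The median log2 change of the 19 was 0.40, with a range of −0.49 to 3.10. Cdkn1a, the cell cycle inhibitor p21, had 3 kept probes with log2 fold changes of 3.10, 2.84 and 3.28, all of which passed (limma, adjusted p = 0.000413, 0.0162 and 0.00165). Cldn4, a tight junction claudin of injured epithelium, averaged 7.80 ± 0.84 (SD, n = 5) in ventilated and 5.14 ± 0.33 (SD, n = 3) in control lungs (limma, adjusted p = 0.0162), and 2 of 3 controls detected it. Its call was lost without control 3 (adjusted p = 0.0767 in limma) and without the detection filter (adjusted p = 0.0536). It was also lost with a common median (2.04), in the deposited scaled values (1.5, adjusted p = 0.506) and on the brighter arrays alone (1.92, adjusted p = 0.0867, limma). With the common median no probe passed, Cdkn1a included, whose log2 fold change there was 3.21. Plaur, the urokinase receptor, which myeloid cells also carry, rose by 1.53 ± 0.32 (SE; adjusted p = 0.0450 in limma), a call lost whichever array was left out (adjusted p = 0.0542 to 0.126).

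**Figure D4:**
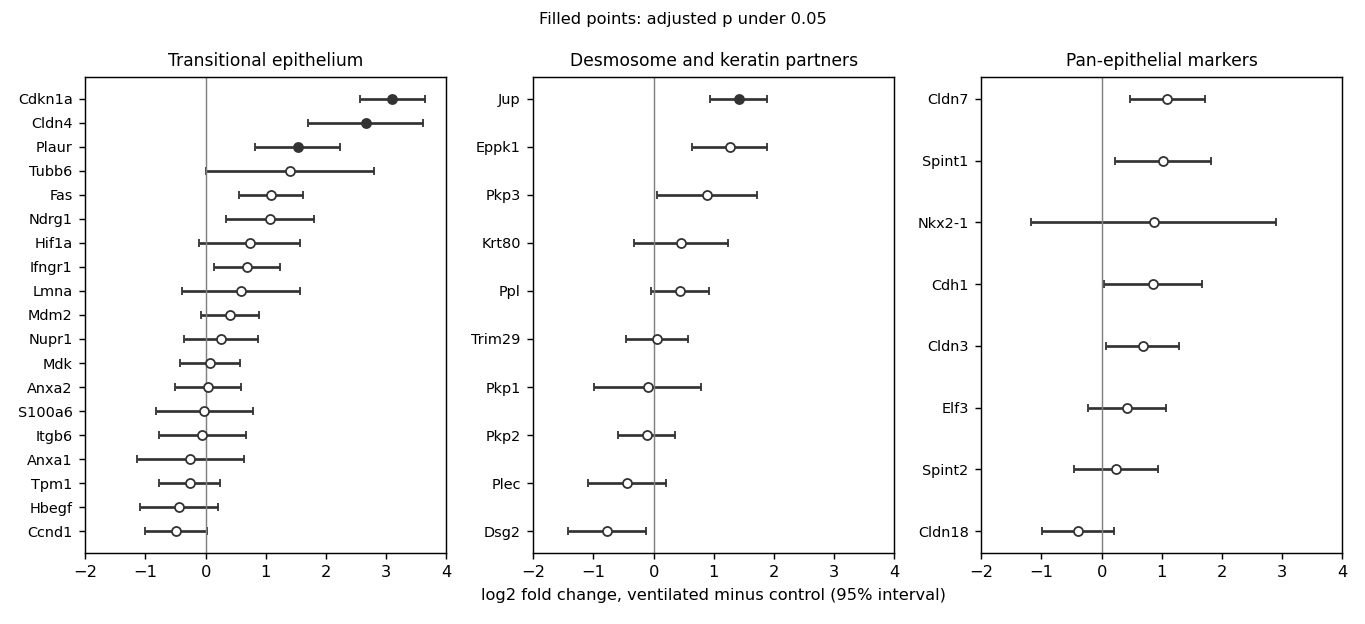
Log2 fold change, ventilated minus control, with 95% limma intervals for genes of transitional alveolar epithelium, of desmosomes and keratin partners, and for pan-epithelial markers. Filled points passed an adjusted p of 0.05: Cdkn1a, Cldn4 and Plaur on the first list, Jup on the next and none of the 8 pan-epithelial markers.

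A list of keratin filament partners and desmosome genes also held a keratin, Krt80, which is counted again among the other keratins below. On that list 1 of 10 kept genes rose, against 1.75% of all named genes. It was Jup, plakoglobin, a component of desmosomes and adherens junctions, at 6.96 ± 0.22 (SD, n = 5) in ventilated and 5.55 ± 0.15 (SD, n = 3) in control lungs (limma, adjusted p = 0.0114). Of the 3 controls 2 detected Jup, and its level in control 2, 5.72, lay under the lowest detected signal of that array, 5.79. The adjusted p of Jup was 0.0552 without control 1 and 0.0675 without control 3 in limma. The call was also lost with the common median (0.99), in the scaled values (0.75, adjusted p = 0.775) and on the brighter arrays (1.42, adjusted p = 0.0813, limma). The list median was 0.25, and −0.11 among probes detected on all 8 arrays. On the cornified envelope list 1 of 7 kept genes rose, Gadd45a, which is a growth arrest gene and no part of the envelope. Its log2 fold change was 1.36 ± 0.26 (SE; adjusted p = 0.0350 in limma), a second probe gave 2.13 (adjusted p = 0.0410 in limma), and the first probe passed in 1 of 8 refits with an array removed, the one without ventilated 1 (adjusted p = 0.0489 in limma). Of the 43 other keratins on the array 23 were detected on no array and 9 were kept. limma called none of the 9, with 0 at an unadjusted p under 0.05 and a range of −0.53 to 0.55, and Krt42 had the smallest p (0.55 ± 0.28 SE; detected in 3 ventilated and 0 control lungs).

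The gene families of the other markers had no member past the threshold in limma. Of 13 kept cathepsins 1 had an unadjusted p under 0.05, against 15% of all kept probes. It was Ctsl, a lysosomal protease (0.88 ± 0.38 SE), which 2 of 3 controls detected. The log2 fold change of Ctsl was 0.44 to 1.14 with 1 array left out, and 0.21 at the lowest under other processing. The 6 other 14-3-3 genes held 1 gene at an unadjusted p under 0.05, Ywhah (−0.61 ± 0.21), against the same 15%. The 6 other galectins with the galectin-3-binding protein Lgals3bp held none, and Lgals7 had the smallest p (0.61 ± 0.31). Of A20 and its partners, the family Tnip3 belongs to by function, 4 of 8 had an unadjusted p under 0.05, against 15% of all kept probes. They were Nfkbia, Tax1bp1, Tnip2 and Tnfaip3, of which Tnip2 and Tnfaip3 were each detected in 2 of 3 controls. The list median was 0.64, and 0.30 with the common median, 0.28 in the scaled values and 0.22 among probes detected on all 8 arrays. Nfkbia, the NF-kB inhibitor IkB alpha, had the smallest p (0.91 ± 0.30), and it passed with array weights (1.08, adjusted p = 0.0126 in limma). Of 5 extracellular chaperones and clusterin receptors 1 had an unadjusted p under 0.05, Trem2, a myeloid receptor (−0.93 ± 0.32), against 15% of all kept probes. Of 6 genes of surfactant protein processing none did, and Sftpc, surfactant protein C, stood at 0.29 ± 0.21.

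The cell type markers give the setting of these values. Of the pan-epithelial markers 8 of 10 were kept and none passed, with a median log2 change of 0.76. In limma 4 had an unadjusted p under 0.05, against 15% of all kept probes: Cldn7, Spint1, Cldn3 and Cdh1. Of the 3 controls 2 detected Cldn7, and 2 detected Spint1. The summed normalized intensity of the markers was 2877 to 4174 in ventilated and 2443 to 3742 in control lungs. Among them Cdh1 stood at 0.85 ± 0.37 (SE) and Cldn3 at 0.68 ± 0.28. The dim control 2 was the lowest control for Cdh1 (7.38, against 8.86 and 8.83) and the highest for Cldn3 (9.06, against 8.40 and 8.16). The part of these markers in the values of Krt8 and Krt18 was not tested. All 11 type 2 markers were kept, with a median of 0.29 and sums of 50080 to 58270 in ventilated and 46880 to 57050 in control lungs. Of 10 type 1 markers 7 were kept, with a median of −0.45 and sums of 13690 to 21400 in ventilated and 17240 to 25070 in control lungs, and Hopx and Rtkn2 were detected on no array. No marker of these 2 lists passed in limma, and 0 had an unadjusted p under 0.05.

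Mesothelial cells also carry Krt7, Krt8, Krt18 and Krt19. Their 7 markers were all kept and none passed, with 0 at an unadjusted p under 0.05 in limma, a median of −0.04 and sums of 938 to 1384 in ventilated and 773 to 1347 in control lungs. Of 11 markers of basal or squamous epithelium 3 were kept, with sums of 93.1 to 130 in ventilated and 79.6 to 170 in control lungs, and 5, Krt5 and Krt4 among them, were detected on no array. Of 13 alveolar macrophage markers 5 were kept, with a median of −0.29 and sums of 889 to 1453 in ventilated and 1223 to 1822 in control lungs, beside the overlapping values of Lgals3, and Siglecf, Fabp4 and Itgax were detected on no array. Of the neutrophil markers 11 of 12 were kept and the median was 2.20, with 6 of 11 kept genes past the threshold and sums of 8981 to 20670 in ventilated and 1655 to 2126 in control lungs. Of 8 monocyte markers 3 were kept and 1 rose, Ifitm6, an interferon-induced membrane protein gene, at 2.58 ± 0.32 (SE; adjusted p = 0.00531 in limma). The other 2, Ly6c1 (0.20 ± 0.24 SE) and F13a1 (0.46 ± 0.33), did not pass. The monocyte sums were 2429 to 4198 in ventilated and 2348 to 3400 in control lungs. They were mostly Ly6c1, whose mean log2 intensity in ventilated lungs was 11.48, against 7.79 for F13a1 and 7.07 for Ifitm6. The part of these myeloid cells in the values of Sfn, Plaur and the other genes above was not tested. Of 10 ciliated cell markers 5 were kept and none passed, with a median of −0.21 and sums of 876 to 1258 in ventilated and 1101 to 1902 in control lungs. Tppp3 stood at −1.10 ± 0.40 (SE; adjusted p = 0.221 in limma) and Foxj1 at 0.28 ± 0.30. Club cell markers summed to 35950 to 39840 in ventilated and 42940 to 50010 in control lungs, with none of 6 past the threshold. Their median was −0.18, and 2 of the 6 had a positive log2 fold change. Cyp2f2 stood at −0.82 ± 0.29 (SE; adjusted p = 0.214 in limma), with every ventilated lung below every control lung, against 6.08% of all kept probes. Scgb1a1 (−0.20 ± 0.23) and Scgb3a1 (1.62 ± 0.87) overlapped between the groups. Skeletal muscle markers summed to 161 to 311 in ventilated and 82.0 to 4649 in control lungs, with control 1 highest.

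**Figure D5:**
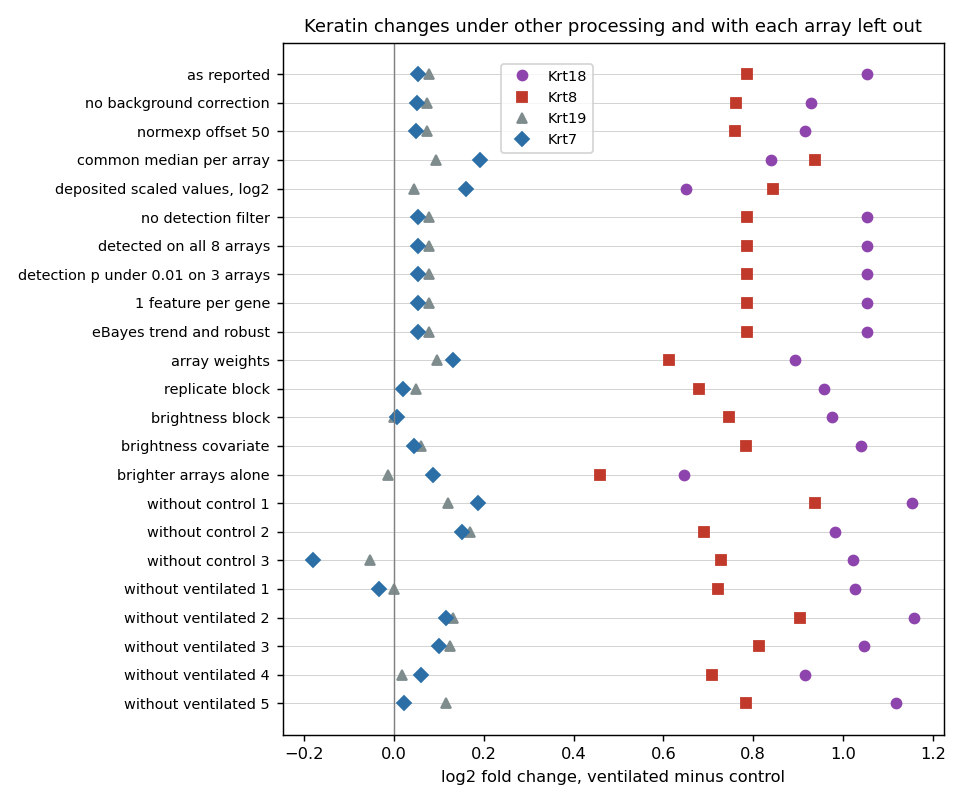
Log2 fold change, ventilated minus control, of Krt18, Krt8, Krt19 and Krt7 as reported, under other processing and with each array left out. Krt18 stays between 0.65 and 1.16 and Krt8 between 0.46 and 0.94, while Krt19 and Krt7 lie between −0.18 and 0.19.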

How the data were processed

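Whole-lung RNA of 5 ventilated and 3 control mice was isolated with Trizol and an RNeasy column, then hybridised as cRNA to Illumina arrays, per the labels' protocols. The authors deposited linear probe intensities that were not normalized, per the file headers, and all lie above 0. Each has a deposited detection p-value, per the file headers, in steps of 1 in 798. A second deposited table of intensities equals the first times 1 factor per array, except for 1 value off by more than 0.001 in log2, and served as an alternative. Scanner software is not given in the sources used here.

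In R 4.3.3 with limma 3.58.1, neqc corrected background from the detection p-values (offset 16), followed by quantile normalization and log2. Probes with a detection p under 0.05 on 3 or more arrays (13374) were fitted with lmFit and eBayes, two-sided, with Benjamini-Hochberg adjustment over all of them and a threshold of 0.05. Each probe stayed its own feature, and a listed gene was described by its kept probe with the highest mean. Of 25697 probes 23978 had 1 gene symbol and 1719 none. Keratin pairs were compared by exact permutation over the 56 splits, adjusted over 6 pairs. The fit was tested on simulated data. Likeness to Krt8 is the root mean square difference of log2 values centred on the mean of the 8 arrays.

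The text names every gene of the set, on each list the genes past the threshold or the one with the smallest p, the 5 genes most like Krt8, and leading cell type markers. The gene set and lists were chosen with earlier results of these data known. Alternatives covered background, normalization, deposited values, filter, features, variance model, weights, thresholds, replicate number, brightness and each array left out. Figures used Python 3.11.15 with matplotlib 3.10.9.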

Additional observations from a re-analysis of the deposited data

Results flagged for a closer look

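Among 22 sets of 5 ventilated values examined, 2 had 1 lung far from the other ventilated lungs, where about 1 in 20 such sets is picked out by chance. The brighter Sfn probe stood at 6.94 in ventilated 1 (6.944 on the normalized log2 scale), with the next lung at 5.22. Without ventilated 1 its log2 fold change was 0.61, against 1.00 with all lungs. Sprr1a stood at 4.85 in ventilated 2 (4.851), with the next lung at 4.41, and ventilated 2 was the only ventilated lung in which it was detected.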

How the results depend on the processing

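Over all kept probes 216 passed as reported, 0 with a common median per array (which moved the median of all probes by −0.12), 7 with the deposited scaled values, 1025 with array weights, 435 at an adjusted p under 0.1, 345 with brightness as a block, 638 with brightness as a covariate, 16 on the brighter arrays alone and 47 to 192 with 1 array left out. Genes of the set that passed numbered 1, Krt18, without background correction (0.93), with offset 50 (0.92), among probes detected on all 8 arrays (1.05), with array weights (0.89), at an adjusted p under 0.1 (1.05) and with the brightness covariate (1.04). The median over the set's 8 kept probes, Sfn included, was 0.31 as reported, 0.57 with the common median and 0.53 with the scaled values. Same-numbered lungs did not deviate together (correlations −0.368, −0.351 and 0.351), so the numbers were not taken to pair the lungs; with the replicate block 2 probes passed, and 0 genes on the transitional, desmosome and cornified lists. Those 3 lists had 0, 0 and 0 genes past the threshold with the common median, 1, 0 and 0 with the scaled values and on the brighter arrays, and 0 to 1 on the cornified, 0 to 1 on the desmosome and 1 to 3 on the transitional list with 1 array left out. The transitional list had 1 without the detection filter and 5 with array weights. The desmosome list had 0 among probes detected on all 8 arrays and 2 with 1 feature per gene, array weights, an adjusted p under 0.1, the brightness block or the covariate. A20 partners had 1 with array weights and with the covariate. The 4 keratin ratios that rose kept their direction throughout. With 1 array left out the difference was 0.54 to 0.91 for Krt8 minus Krt7, 0.52 to 0.82 for Krt8 minus Krt19, 0.83 to 1.20 for Krt18 minus Krt7 and 0.81 to 1.08 for Krt18 minus Krt19. None passed with a control removed, where 21 splits allow no adjusted p under 0.0714 when 4 reach the smallest p and Krt18 minus Krt7 did not reach it without control 2, and all passed with a ventilated lung removed. On the brighter arrays alone, an alternative chosen after seeing the data, they were 0.37, 0.47, 0.56 and 0.66. Krt18 minus Krt7 was 0.65 with the common median and 0.49 with the scaled values, and did not pass. Krt8 minus Krt18 was 0.10 and 0.19 there, and Krt7 minus Krt19 was 0.10, 0.12 and, on the brighter arrays, 0.10, with −0.13 to 0.068 when 1 array was left out. Clu was 0.13 with the common median and 0.086 with the scaled values, and −0.24 to 0.17 with 1 array left out. On the brighter arrays Krt19 was −0.012 and Lgals3 −0.17. With 1 array left out Krt7 lay between −0.18 and 0.19, Krt19 between −0.054 and 0.17, and Lgals3 between −0.0076 and 0.51. The cause of these shifts was not tested. Signal over background limits Sfn and Sprr1a, which most arrays did not detect.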
